A study of Arabidopsis thaliana with 6 samples.

Results

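The genes described here are 10 genes of copper economy in Arabidopsis thaliana, taken by gene ID from a table of 32948 genes. They are the copper transporter genes COPT1 and COPT2, the metal reductase genes FRO4 and FRO5, the superoxide dismutase genes FSD1, CSD1 and CSD2, the copper chaperone genes CCS and CCH, and SPL7, the gene of the regulator of copper shortage. Messenger RNA was measured in whole wild-type (WT) seedlings at 6 h, in 3 libraries of seedlings grown on MS medium, a common culture medium for plants, with 20 mM yttrium oxide nanoparticles and 3 libraries of seedlings on MS medium alone. The first group is called treated and the second control. Whether the libraries of a group are separate cultures is not labelled, and the p-values below therefore cover the spread among these 6 libraries alone, which may be technical.

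Copper is the cofactor of plastocyanin, cytochrome oxidase, laccases and copper/zinc superoxide dismutases, and free copper is toxic, so plant cells pass it from reductases and transporters to chaperones and on to these proteins. In copper-poor Arabidopsis the transcription factor SPL7 binds GTAC motifs and turns on uptake genes, FSD1 and microRNAs such as miR398 and miR408. miR398 acts on the mRNAs of CSD1, CSD2 and CCS, so that the iron enzyme FSD1 takes over from copper/zinc dismutases and copper is kept for plastocyanin, while miR408 acts on mRNAs of laccases and plantacyanin.

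The pairing of miR398 with the mRNAs of 3 of these genes is shown because it joins both dismutases and their chaperone to 1 regulator. The mature sequence of miR398b-3p was read from the TAIR10.1 genome at chr5:4691107-4691127 on the plus strand, with its seed (bases 2 to 8) in capitals.

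miR398b-3p: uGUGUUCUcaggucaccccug

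miR398c-3p has the same sequence, and miR398a-3p has the same seed. The best site for miR398b-3p in each mRNA is given 5′ to 3′, with the bases that pair by Watson-Crick rules in capitals.

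CSD1: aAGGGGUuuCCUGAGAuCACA

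CSD2: ugcGGGUGACCUGgGAAACA

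CCS: auuGGGaGACCUGgGAACACu

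Sites were scored by a penalty, with 1 for a mismatch, 0.5 for a G-U pair, both doubled at bases 2 to 13 of the microRNA, and 2 for a bulge at any base. The CSD1 site pairs at 17 of 21 bases, lies in the 5′ untranslated region across a splice junction on chromosome 1, between 2827177 and 2827685 on the plus strand, and has a penalty of 6. The CSD2 site pairs at 16 bases with 3 further G-U pairs and a bulge on the microRNA side, lies in the coding sequence on chromosome 2, from 12015572 to 12015591 on the plus strand, and has a penalty of 5. The CCS site pairs at 15 bases, lies in the coding sequence on chromosome 1, from 4267521 to 4267541 on the minus strand, and has a penalty of 6. Of 27438 mRNAs scanned, 9 (0.0328%) held a site with a penalty of 5 or less and 51 (0.186%) held one of 6 or less, so matches of this quality were rare. In the FSD1 mRNA the best match had a penalty of 9, which 16.9% of mRNAs reached. A match is a description of the sequence, and mature microRNAs were not measured in these libraries.

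Recovered depth was 19314683 to 22089042 reads in treated libraries and 19635539 to 23374306 reads in control libraries. On the first principal component (68.4% of the variance) the groups separated, while treated library 2 stood apart from the other treated libraries on the second, at -29.8 against 7.23 and 13.2. Where that library moved the change of a copper gene by over 1.5 times, the value without it is given too. Root marker mRNAs were also lower in treated seedlings. The summed level of 12 root marker genes was 453.7 to 520.0 FPKM in treated and 1980 to 2482 FPKM in control libraries. Without the abundant BGLU23 it was 1.58 to 3.37 FPKM in treated and 28.6 to 30.9 FPKM in control libraries. Of the 9 root markers tested, 8 were lower by limma, against 6.41% of all tested genes. The exception was MYB36, whose groups overlapped, with treated library 1 at 2.62 FPKM and control library 1 at 2.37 FPKM. CASP5, COBL9 and ESB1 were not tested. CASP5 had 0 reads in all treated and 4, 1 and 4 reads in control libraries, too few to weigh. COBL9 had 0, 0 and 2 reads in treated and 44, 49 and 48 reads in control libraries. ESB1 overlapped, with 5, 5 and 3 reads in treated and 8, 5 and 5 reads in control libraries. Shoot markers summed to 12364 to 15152 FPKM in treated and 12087 to 14047 FPKM in control libraries, and of 8 only LHCB2.1 rose (log2 change 0.54, limma adjusted p = 0.0123). In such bulk samples, fewer cells of a type and less RNA per cell cannot be told apart.

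The comparison asks whether the copper genes differed between seedlings with and without the particles. Levels are in FPKM, fragments scaled to gene length and library size, and each change is the treated mean minus the control mean of log2(FPKM + 1), with limma p-values adjusted over 18614 tested genes and a threshold of 0.05. Of the 10 genes, 8 passed the filter of a mean of 1 FPKM and 1 of these, CCH, was called, in the higher direction. Over all tested genes 14.5% were called, 8.07% as higher and 6.41% as lower in treated seedlings, so the share of copper genes called was close to the background. The groups did not overlap for CCH, COPT1 and CSD2, 3 of the 8, against 35.6% of all tested genes. The same 3 genes had an unadjusted limma p under 0.05, against 29.7% of all tested genes. The edgeR test called only CCH, with 16.0% of all genes called, and DESeq2 called CCH and CSD2, with 19.5% of all genes called. The median log2 change was -0.02 over the 8 genes and 0.0009 over all tested genes. None of the 10 genes is in the authors' deposited table of 2104 genes, whose smallest absolute log2 fold change is 1.

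**Figure D1:**
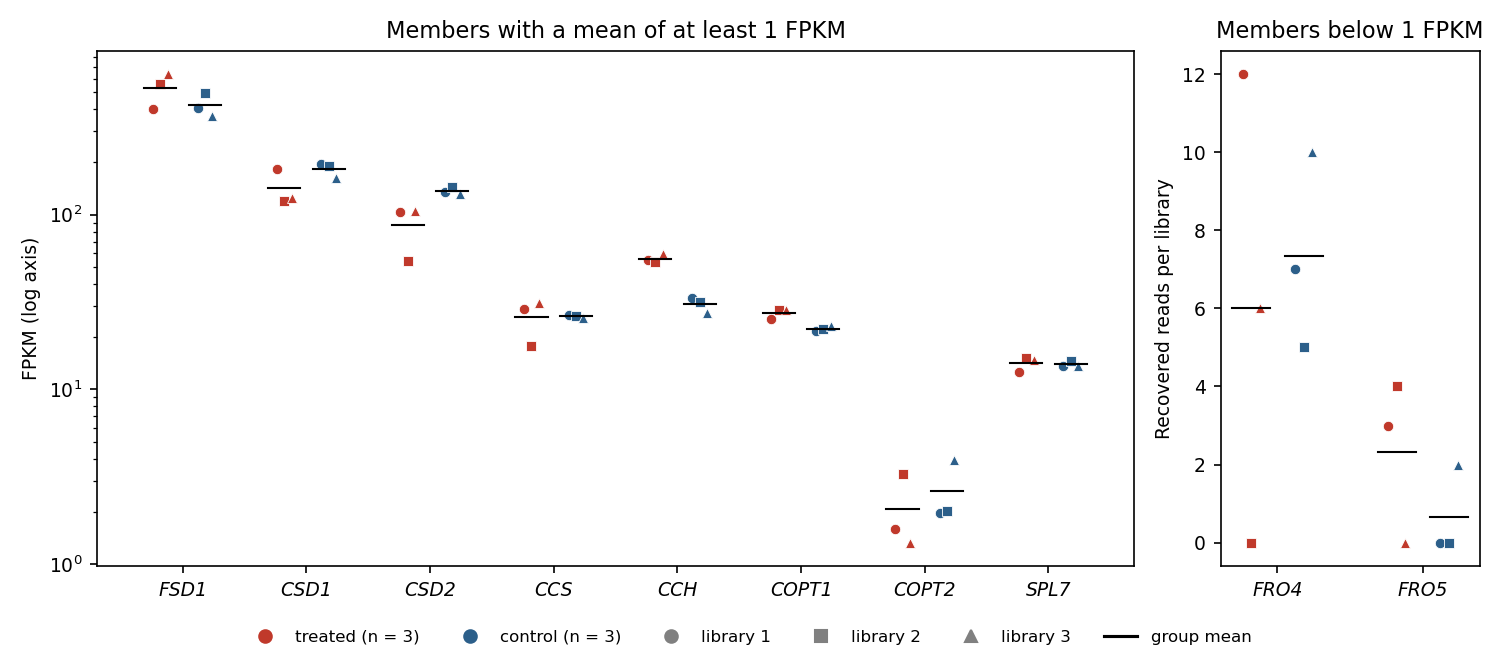
Level of each of the 10 copper genes in every library, as FPKM on a log axis (left) and as recovered reads per library for FRO4 and FRO5 (right), with treated libraries in red left of control libraries in blue, marker shapes for library numbers and a bar at each group's mean (n = 3). CCH stands at 53.5 to 59.6 FPKM in treated libraries and 27.5 to 33.4 FPKM in control libraries. Treated library 2 is the lowest of the 6 for CSD1, CSD2, CCS and FRO4, with 0 reads of FRO4.

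CCH, a cytosolic copper chaperone of the ATX1 family known for its high level in ageing leaves, was the gene that rose. CCH (AT3G56240, chromosome 3, 20863139 to 20864727, minus strand) had 54.6, 53.5 and 59.6 FPKM in treated libraries 1 to 3, against 33.4, 31.6 and 27.5 FPKM in control libraries 1 to 3. Every treated library lay above every control library, with the treated mean 1.81 times the control mean. The means were 55.9 ± 3.22 FPKM in treated and 30.8 ± 3.05 FPKM in control libraries (SD, n = 3 each). The log2 change was 0.84 (SE 0.113, 95% interval 0.583 to 1.1, limma adjusted p = 0.00202), and it lay between 0.76 and 0.90 in all 13 alternative analyses, with adjusted p up to 0.010. ATX1, the closest relative of CCH and also a copper chaperone, had 228, 230.2 and 186 FPKM in treated and 216, 196 and 177 FPKM in control libraries. It was not called (log2 change 0.13, limma adjusted p = 0.545, and 0.07 without treated library 2). The mRNAs of CCH and ATX1 share none of their 50-base windows, so no read of that length is shared between them.

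The promoter of CCH is shown because it holds more copies of GTAC, the core of the SPL7 binding motif, than that of any other of the 10 genes. The window runs from 250 bases before to 50 bases after the gene start (TAIR10.1, chr3:20864678-20864977, minus strand, read 5′ to 3′), with each GTAC in capitals.

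CCH promoter: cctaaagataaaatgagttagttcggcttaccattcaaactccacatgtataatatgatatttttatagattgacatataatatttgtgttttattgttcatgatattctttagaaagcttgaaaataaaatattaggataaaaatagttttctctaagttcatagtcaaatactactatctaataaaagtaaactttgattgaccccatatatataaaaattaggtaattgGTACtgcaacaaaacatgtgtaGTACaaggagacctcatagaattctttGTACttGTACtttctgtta

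It holds 4 copies, which begin at positions -18, 5, 32 and 38, counted with the first base of the gene as 1 and the bases before it as negative, so 3 of them lie in the transcribed part. At least 4 copies stand in 0.397% of 27443 promoters of the same length. GTAC reads the same on both strands. The longer forms GTACTAC and GTACTGC, searched on both strands and each containing a GTAC, occur 2 times in the CCH window, and at least 2 such copies stand in 0.0583% of promoters. FSD1, known as a target of SPL7, is shown for comparison (chr4:12886962-12887261, minus strand).

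FSD1 promoter: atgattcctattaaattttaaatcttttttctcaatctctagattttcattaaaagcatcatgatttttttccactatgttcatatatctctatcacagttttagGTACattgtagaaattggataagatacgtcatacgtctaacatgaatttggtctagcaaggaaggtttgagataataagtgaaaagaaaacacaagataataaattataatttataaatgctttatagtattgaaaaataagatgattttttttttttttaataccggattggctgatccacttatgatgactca

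That window holds 1 GTAC, at -145, and no longer form; at least 1 GTAC stands in 39.0% of promoters. CSD1 has 2 copies of GTAC in its window, COPT2 and CCS have 1 each, and COPT1, FRO4, FRO5, CSD2 and SPL7 have 0. The copy of COPT2 is part of a longer form, which 2.30% of promoters hold. These matches say which letters are in the windows, and binding was not measured.

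FSD1, the iron superoxide dismutase of the chloroplast and cytosol, was the most abundant mRNA of the set, with a higher mean in treated seedlings but overlapping groups. FSD1 (AT4G25100, chromosome 4, 12884300 to 12887011, minus strand) had 401, 562 and 636 FPKM in treated and 405, 493 and 368 FPKM in control libraries. Treated libraries 2 and 3 lay above all controls, and treated library 1 lay among them. The means were 533 ± 120 FPKM in treated and 422 ± 64.2 FPKM in control libraries (SD, n = 3 each). The log2 change was 0.32 (SE 0.186, 95% interval -0.108 to 0.748, limma adjusted p = 0.293). Over the alternatives it ran from 0.18 to 0.51, with adjusted p from 0.0836 (without treated library 1) to 0.575.

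CSD2, the copper/zinc dismutase of the chloroplast, was lower in every treated library, and in treated library 2 most of all. CSD2 (AT2G28190, chromosome 2, 12014412 to 12016569, plus strand) had 103, 54.4 and 105 FPKM in treated and 134, 143 and 131 FPKM in control libraries. The groups did not overlap, and treated library 2 had 0.523 times the mean of the other treated libraries. The means were 87.4 ± 28.7 FPKM in treated and 136 ± 6.61 FPKM in control libraries (SD, n = 3 each). The log2 change was -0.69 (SE 0.242, 95% interval -1.26 to -0.129), with an unadjusted p of 0.0224 that did not pass after adjustment (limma adjusted p = 0.102). Without treated library 2 it was -0.38 (limma adjusted p = 0.0583). DESeq2 on recovered reads called the gene lower (log2 change -0.65, adjusted p = 0.0243), and edgeR did not (-0.65, adjusted p = 0.0783).

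CSD1, the cytosolic copper/zinc dismutase, had a lower mean in treated seedlings that was not called. CSD1 (AT1G08830, chromosome 1, 2827060 to 2829315, plus strand) had 183, 119.7 and 124 FPKM in treated and 194, 189 and 161 FPKM in control libraries. Treated libraries 2 and 3 lay under all controls, and treated library 1 lay among them, as it did for FSD1. The means were 142 ± 35.4 FPKM in treated and 181 ± 17.6 FPKM in control libraries (SD, n = 3 each), and the log2 change was -0.37 (SE 0.172, 95% interval -0.766 to 0.0227, limma adjusted p = 0.191). Without treated library 1 it was -0.57 and was called (limma adjusted p = 0.0345). A gene on the other strand covers 9.35% of the CSD1 span, and whether counting used strand is not given in the sources used here.

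CCS, the chaperone that loads copper into CSD1 and CSD2, had nearly equal means in both groups. CCS (AT1G12520, chromosome 1, 4267074 to 4268982, minus strand) had 28.9, 17.8 and 31.4 FPKM in treated and 26.7, 26.4 and 25.6 FPKM in control libraries. Treated libraries 1 and 3 lay above all controls and treated library 2 under them, so the treated spread was wide: 26.0 ± 7.24 FPKM in treated against 26.3 ± 0.575 FPKM in control libraries (SD, n = 3 each). The log2 change was -0.05 (SE 0.195, 95% interval -0.501 to 0.399, limma adjusted p = 0.886). Without treated library 2 its sign turned, to 0.19, still with no call (limma adjusted p = 0.304).

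Ratios within a library do not depend on how libraries were scaled. FSD1 was 1.40, 3.23 and 2.78 times the sum of CSD1 and CSD2 in treated libraries, against 1.23, 1.49 and 1.26 times in control libraries. Treated library 1 lay within the range of the controls and the other treated libraries well above it. On the log2 scale the ratio averaged 1.22 ± 0.642 in treated and 0.403 ± 0.146 in control libraries (SD, n = 3 each), a difference of 0.82 that did not pass a 2-sided exact permutation test (p = 0.2, where 0.1 is the smallest p that 3 against 3 libraries allow). With CSD2 alone below the line the groups did not overlap, and the difference was 1.02 (exact permutation p = 0.1, the smallest possible). Without treated library 2 the difference in the ratio to CSD1 plus CSD2 was 0.58, and without treated library 1 it was 1.18.

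CCS relative to the sum of CSD1 and CSD2 was 0.101, 0.102 and 0.137 in treated and 0.0814, 0.0796 and 0.0878 in control libraries. All treated libraries lay above all control libraries, treated library 2 included, although CCS itself did not differ in that way. The log2 ratio averaged -3.15 ± 0.251 in treated and -3.59 ± 0.0741 in control libraries (SD, n = 3 each), a difference of 0.44 (exact permutation p = 0.1, the smallest possible, so the design cannot reach 0.05). Leaving out 1 library at a time gave 0.29 to 0.52. In treated library 2 CSD2 and CCS were both low, at 0.523 and 0.590 times the mean of the other treated libraries, with CSD1 at 0.780 times.

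Summed over the 8 superoxide dismutase genes, the total level was 961, 1018 and 1106 FPKM in treated and 1004, 1091 and 907 FPKM in control libraries, and the groups overlapped. Copper/zinc dismutases (CSD1, CSD2 and CSD3) made up 33.4%, 20.3% and 23.5% of it in treated and 36.3%, 32.7% and 35.0% in control libraries. Iron dismutases (FSD1, FSD2 and FSD3) made up 47.8%, 60.7% and 62.2% in treated and 46.2%, 50.8% and 46.1% in control libraries, so treated library 1 was within the control range for both classes. Manganese dismutases (MSD1 and MSD2) made up 17.3 ± 2.66% in treated and 17.6 ± 1.20% in control libraries (SD, n = 3 each). FSD1 was 87.5% to 92.4% of the iron class in treated and 87.4% to 89.1% in control libraries. These shares are sums of the levels above and were not tested apart from the ratios.

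**Figure D2:**
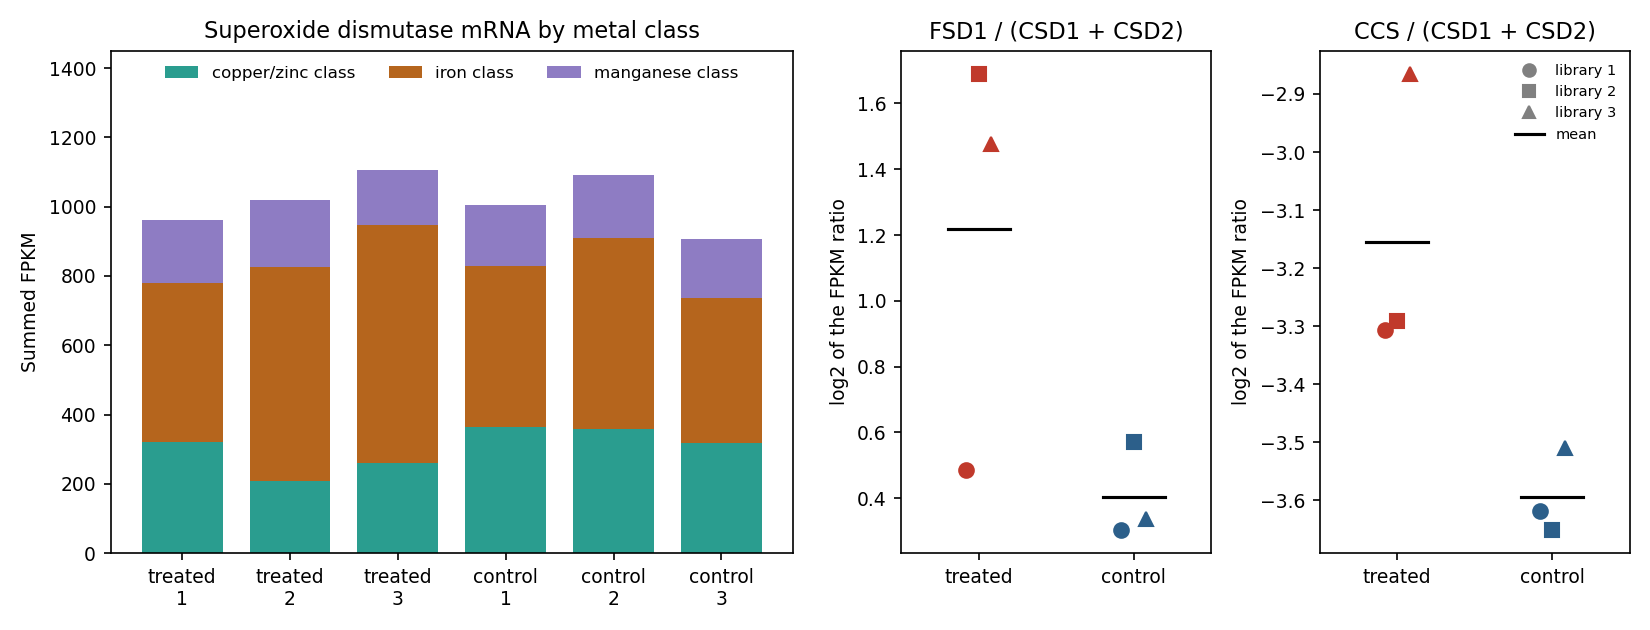
Left, summed FPKM of the superoxide dismutase mRNAs in each library, stacked by metal class; centre and right, log2 ratios of FSD1 and of CCS to CSD1 plus CSD2, with treated libraries in red, control libraries in blue, marker shapes for library numbers and a bar at the mean (n = 3). Treated library 1 sits at a log2 FSD1 ratio of 0.49, below control library 2 at 0.57, whereas the CCS ratios of the groups do not overlap.

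None of the other dismutase genes was called. Of 5 genes, 4 were tested and 0 were called by limma, edgeR or DESeq2, against 14.5%, 16.0% and 19.5% of all genes. An unadjusted limma p under 0.05 was reached by 0 of them, against 29.7% of all tested genes. With 4 genes tested, these counts do not set them apart from the background. CSD3, the peroxisomal copper/zinc enzyme, had 35.0, 33.0 and 31.7 FPKM in treated and 36.3, 24.9 and 25.5 FPKM in control libraries (log2 change 0.22, limma adjusted p = 0.382). Genes on the other strand cover 32.2% of its span. FSD2 and FSD3, iron enzymes of the chloroplast nucleoids, had log2 changes of 0.17 and -0.10 (limma adjusted p = 0.545 and 0.570). MSD1, the mitochondrial manganese enzyme, averaged 177 ± 17.8 FPKM in treated and 175 ± 4.91 FPKM in control libraries (SD, n = 3 each; log2 change 0.01, limma adjusted p = 0.967).

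The transporters COPT1 and COPT2 carry copper across the plasma membrane. COPT1 (AT5G59030, chromosome 5, 23833493 to 23834745, minus strand) had 25.3, 28.4 and 28.6 FPKM in treated and 21.7, 22.0 and 23.2 FPKM in control libraries, with no overlap and little spread. The means were 27.4 ± 1.88 FPKM in treated and 22.3 ± 0.778 FPKM in control libraries (SD, n = 3 each). The log2 change was 0.29 (SE 0.102, 95% interval 0.0537 to 0.520), with an unadjusted p of 0.0217 that did not pass after adjustment (limma adjusted p = 0.0995, 0.0858 to 0.252 over the alternatives). COPT2 (AT3G46900, chromosome 3, 17268700 to 17269510, plus strand), a strong marker of copper shortage in roots, was low in all libraries, at 1.58, 3.26 and 1.33 FPKM in treated and 1.96, 2.03 and 3.92 FPKM in control libraries. Its groups overlapped, and the log2 change was -0.26 (SE 0.283, 95% interval -0.915 to 0.393, limma adjusted p = 0.580). Without treated library 2, the highest treated value, it was -0.53 (limma adjusted p = 0.168). The part of the lower root markers in the COPT2 level was not tested.

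FRO4 and FRO5, reductases that deliver reduced copper for uptake at the root surface, had few reads in any library. FRO4 (AT5G23980, chromosome 5, 8097978 to 8101330, minus strand) had 12, 0 and 6 reads in treated and 7, 5 and 10 reads in control libraries. FRO5 (AT5G23990, chromosome 5, 8105461 to 8108642, minus strand) had 3, 4 and 0 reads in treated and 0, 0 and 2 reads in control libraries. Neither reached the filter of 1 FPKM on average. With no filter, limma gave log2 changes of -0.04 for FRO4 and 0.05 for FRO5, and called neither (adjusted p = 0.829 and 0.642). The genes are neighbours with similar sequence, and 5.11% of the 50-base windows of the FRO4 mRNA also occur in FRO5, so the split of so few reads between them is uncertain.

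SPL7, the regulator itself, was not called and had the change closest to 0 of the tested copper genes. SPL7 (AT5G18830, chromosome 5, 6275895 to 6280681, plus strand) had 12.6, 15.1 and 14.6 FPKM in treated and 13.6, 14.6 and 13.7 FPKM in control libraries. The groups overlapped, with means of 14.1 ± 1.31 FPKM in treated and 14.0 ± 0.545 FPKM in control libraries (SD, n = 3 each). The log2 change was 0.01 (SE 0.108, 95% interval -0.237 to 0.259, limma adjusted p = 0.958), and -0.04 without treated library 2. The activity of the SPL7 protein was not measured.

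By mean level over all 6 libraries, per gene length, the order was FSD1 (477.7 FPKM), CSD1 (162), CSD2 (112), CCH (43.4), CCS (26.1), COPT1 (24.9), SPL7 (14.0), COPT2 (2.35), FRO4 (0.134) and FRO5 (0.0284 FPKM). The ranges of neighbours overlapped between CSD1 and CSD2, CSD2 and CCH, CCH and CCS, CCS and COPT1, and FRO4 and FRO5. Within libraries most of these orders held: CSD1 lay above CSD2, CSD2 above CCH and CCH above CCS in 6 of 6 libraries, while CCS lay above COPT1 in 5 of 6, the exception being treated library 2.

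Other genes of copper transport, delivery and regulation were taken as a list of 19. Of the 16 tested, 3 were higher and 1 was lower, against 8.07% and 6.41% of all tested genes, with a median log2 change of 0.11 against 0.0009 for all tested genes. FRO3, a mitochondrial metal reductase that also responds to iron shortage, had 42.2, 38.7 and 32.0 FPKM in treated and 15.8, 12.1 and 20.7 FPKM in control libraries (log2 change 1.19, SE 0.192, limma adjusted p = 0.00547). COPT6, a plasma membrane copper transporter of shoots, had 22.2, 16.1 and 23.3 FPKM in treated and 11.1, 9.21 and 11.3 FPKM in control libraries (log2 change 0.89, SE 0.156, limma adjusted p = 0.00743). HMA5, a copper-exporting ATPase of roots, had 7.35, 6.51 and 6.77 FPKM in treated and 3.57, 3.98 and 4.73 FPKM in control libraries (log2 change 0.63, SE 0.132, limma adjusted p = 0.0152). For FRO3, COPT6 and HMA5 all treated libraries lay above all controls. The HMA5 call was lost without control library 1 or control library 2 (limma adjusted p = 0.0707 and 0.0595). HMA5 rose while 8 of the 9 root markers tested were lower, and their part in its level was not tested.

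ZIP2, a metal transporter known mainly from roots, fell. It had 1.05, 2.18 and 0.996 FPKM in treated and 7.55, 6.60 and 8.53 FPKM in control libraries (log2 change -1.86, SE 0.201, limma adjusted p = 0.000628). Its fall stood beside that of the root markers, of which 8 of 9 tested were lower, and their part in it was not tested. The promoter windows of ZIP2 and YSL2 hold 4 and 3 copies of GTAC, and those of COPT6, FRO3 and HMA5 hold 0. RAN1 and COPT3, of the same list, also hold 3 copies each. At least 3 copies stand in 1.99% of all promoters scanned and at least 1 in 39.0%, so a window with 0 is common. RAN1 was not called (log2 change -0.18, limma adjusted p = 0.350). COPT3 was not tested, with 0 reads in all treated and 0, 4 and 0 reads in control libraries. YSL2, a metal-nicotianamine transporter, had 9.96, 24.1 and 11.9 FPKM in treated and 7.40, 9.95 and 6.42 FPKM in control libraries, and was not called by limma (log2 change 0.79, adjusted p = 0.140). Treated library 2 carried much of that difference, and without it the log2 change was 0.43 (limma adjusted p = 0.138). DESeq2 on all libraries called YSL2 (adjusted p = 0.0114). COPT5, the vacuolar copper exporter, had 44.3, 37.1 and 45.4 FPKM in treated and 27.9, 40.8 and 43.9 FPKM in control libraries (log2 change 0.19, limma adjusted p = 0.516), and genes on the other strand cover 45.1% of its span. CITF1, a bHLH factor of copper shortage, had 15, 17 and 11 reads in treated and 4, 1 and 12 reads in control libraries. Its mean level was under the filter of 1 FPKM, and limma with no filter did not call it (log2 change 0.19, adjusted p = 0.167).

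Copper proteins were taken as a list of 12, in which COX5B-1 stands only as a subunit of cytochrome oxidase, an enzyme that holds copper. Of the 11 tested, 0 were higher and 4 were lower, against 8.07% and 6.41% of all tested genes. The median log2 change was -0.30, which is the value of COX5B-1 itself. In either direction, 8 had an unadjusted limma p under 0.05, COX5B-1 among them, against 29.7% of all tested genes. DESeq2, which called 19.5% of all genes, called 6 copper proteins, 2 of them, PETE1 and UCC2, as higher. The members called lower were plantacyanin and the laccases LAC3, LAC7 and LAC13. Laccases are cell wall oxidases of lignin and flavonoids. The laccases LAC4, LAC12 and LAC17 overlapped between the groups and were not called. Their log2 changes were -0.34, -0.15 and -0.10 (limma adjusted p = 0.221, 0.635 and 0.711). Genes on the other strand cover 97.4% of the LAC17 span. LAC3 had 2.03, 4.27 and 2.31 FPKM in treated and 10.4, 12.9 and 11.1 FPKM in control libraries (log2 change -1.73, SE 0.211, limma adjusted p = 0.00127). LAC7 had 5.60, 2.77 and 4.34 FPKM in treated and 12.4, 11.5 and 15.7 FPKM in control libraries (log2 change -1.47, SE 0.214, limma adjusted p = 0.00329). Both are known from roots, LAC3 as a protein of the Casparian strip, and they were low beside the root markers, whose part was not tested.

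ARPN, the plantacyanin gene, had 8.35, 5.50 and 7.94 FPKM in treated and 17.6, 13.1 and 13 FPKM in control libraries (log2 change -0.92, SE 0.177, limma adjusted p = 0.0108). LAC13 had 4.48, 5.35 and 4.75 FPKM in treated and 7.84, 7.67 and 7.08 FPKM in control libraries (log2 change -0.54, SE 0.119, limma adjusted p = 0.0186). All 4 genes had treated libraries wholly under the controls. The ARPN call was lost without control library 1 (limma adjusted p = 0.0508), and the LAC13 call without treated library 1, control library 1 or control library 2 (limma adjusted p = 0.0536, 0.0841 and 0.0755). In the authors' deposited table, LAC3, LAC7, ARPN and ZIP2 have log2 fold changes of -2.00, -1.64, -1.01 and -2.42, and FRO3 has 1.22. That table also lists LAC2, at -4.27 (adjusted p = 0.0431), a gene under the filter of 1 FPKM with 1, 0 and 0 reads in treated and 6, 6 and 9 reads in control libraries. With no filter limma did not call LAC2 (adjusted p = 0.0620).

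The plastocyanins, copper proteins of photosynthetic electron transport, were higher in each treated library without being called. PETE1 had 131, 146 and 133 FPKM in treated and 113, 108 and 96.4 FPKM in control libraries (log2 change 0.36, SE 0.109, limma adjusted p = 0.0590), and DESeq2 called it (adjusted p = 0.0331). PETE2, the more abundant form, had 1079, 975 and 1181 FPKM in treated and 909, 933 and 882 FPKM in control libraries (log2 change 0.24, SE 0.104, limma adjusted p = 0.157). For both genes every treated library lay above every control library.

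**Figure D3:**
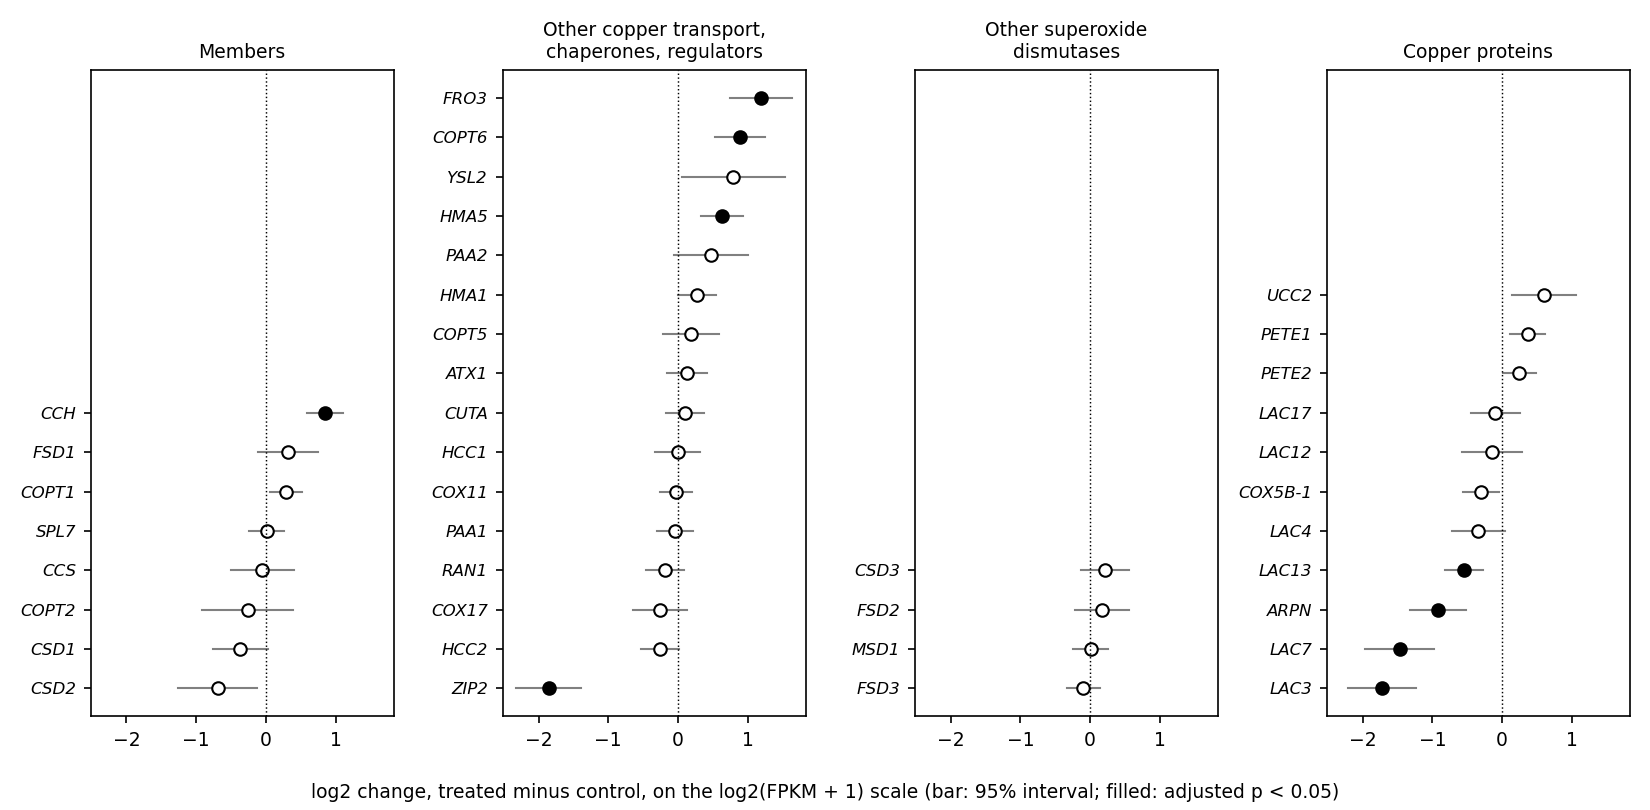
Log2 change of each tested gene, as the treated mean minus the control mean of log2(FPKM + 1), for the copper genes of the set (members) and 3 lists of related genes; bars are 95% intervals and filled points have a limma adjusted p under 0.05. CCH at 0.84 is the filled point among the members, with CSD2 at -0.69 the lowest.

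Listed copper genes with a site penalty of 6 or less were taken next, 4 for miR398b-3p and 6 for miR408-3p. Over all 27438 mRNAs, 51 and 67 reached that penalty, and the changes of the unlisted ones are not described here. Of the listed genes, limma called 3 as lower, all of them paired with miR408, and 0 as higher. Over all tested genes, 6.41% were called lower and 8.07% higher. For miR398b-3p the best match among the listed copper genes was COX5B-1, a cytochrome oxidase subunit, with a penalty of 4 that 2 of 27438 mRNAs reached. It had 81.0, 76.2 and 67.3 FPKM in treated and 88.2, 96.4 and 92.8 FPKM in control libraries, without overlap, and was not called (log2 change -0.30, limma adjusted p = 0.105). Of the 4 miR398-paired genes, COX5B-1, CSD2, CSD1 and CCS, 0 were called by limma. For miR408-3p, 6 listed genes had a penalty of 6 or less. The microRNA lies at chr2:19319933-19319953 on the plus strand, and it is printed with its seed in capitals above its sites in ARPN and LAC3, of these 6 the genes with the best match and with the largest fall.

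miR408-3p: aUGCACUGccucuucccuggc

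ARPN: cCaAGGGAAGAGGCAGUGCAU

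LAC3: aCCAGuGAAGAGGCuGUGCAg

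The ARPN site (chromosome 2, 827696 to 827716, minus strand, coding) has a penalty of 2, the lowest of all mRNAs scanned, and the LAC3 site (chromosome 2, 12889603 to 12889623, minus strand, coding) one of 5. ARPN, LAC3 and LAC13 fell, as above. LAC12, with the same penalty of 4.5 as LAC13, had 1.12, 2.35 and 1.54 FPKM in treated and 2.03, 2.03 and 1.68 FPKM in control libraries (log2 change -0.15, limma adjusted p = 0.635, and -0.33 without treated library 2). PAA2, the thylakoid copper ATPase, and UCC2, a uclacyanin, had positive changes of 0.47 and 0.60 that limma did not call (adjusted p = 0.220 and 0.0850). DESeq2 called UCC2 higher (log2 change 0.62, adjusted p = 0.0162), and limma called PAA2 when treated library 2 was left out (log2 change 0.70, adjusted p = 0.0271). LAC7, which also fell, had a best match to miR408-3p with a penalty of 8.5, which 8.19% of mRNAs reached. Sites of microRNAs other than miR398b-3p and miR408-3p were not sought, for LAC7 or any other gene.

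**Figure D4:**
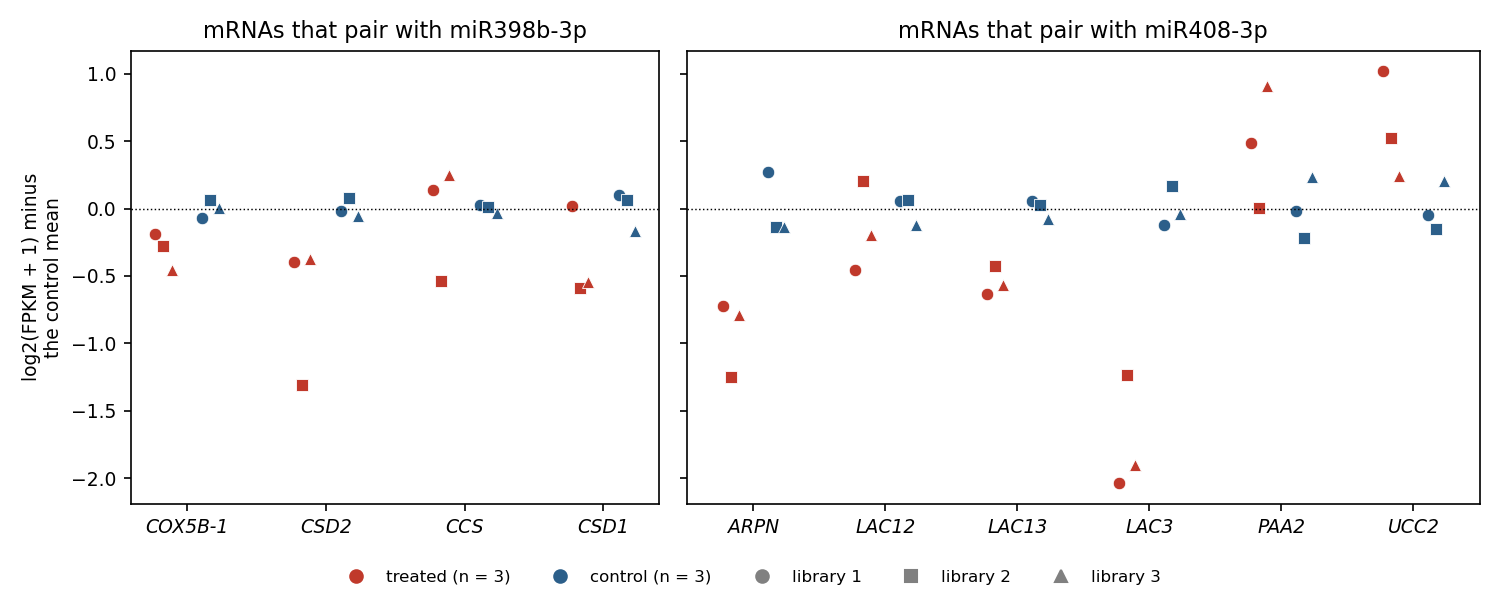
Level of mRNAs of the listed copper genes with a site penalty of 6 or less for miR398b-3p (left) or miR408-3p (right) in each library. Values are log2(FPKM + 1) minus the control mean, with treated libraries in red left of control libraries in blue. Marker shapes stand for library numbers (n = 3 each). CSD2, ARPN, LAC13, LAC3 and COX5B-1 lie wholly under the controls in treated libraries, while UCC2 lies wholly above them. The groups did not overlap for 35.6% of all tested genes.

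The microRNA precursors carried almost no reads. MIR398B, MIR408, MIR397A and MIR397B were listed at 0 in all 6 libraries. MIR398A had 1, 4 and 0 reads in treated and 1, 1 and 1 reads in control libraries, and MIR398C had 0, 8 and 6 reads in treated and 3, 1 and 0 reads in control libraries. MIR398C, the only one tested, was not called (log2 change 0.74, limma adjusted p = 0.430). MIR398B, MIR408 and MIR397A lie wholly (100%) within the span of a gene on the other strand. How reads were assigned there is not known, so a listed 0 does not show that a precursor was absent.

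The genes with a pattern most like that of FSD1 were found by the root mean square distance between log2(FPKM + 1) values, each gene centred on its own mean over the 6 libraries, among 18613 other tested genes. The closest 5 with a symbol were RLP47 (0.0627), SPS4 (0.0673), CCB3 (0.0844), PGRL1B (0.0849) and ELI5 (0.0860). SPS4, for a sucrose phosphate synthase, had 13.4, 16.5 and 20.4 FPKM in treated and 12.0, 14.7 and 11.2 FPKM in control libraries, with treated library 1 again within the range of the controls. Of the copper genes, COPT1 was the nearest to FSD1, at rank 772, while CSD1 and CSD2 were at ranks 15914 and 17093. All these distances rest on the same 6 libraries and describe them only.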

How the data were processed

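Messenger RNA of 3 treated and 3 control libraries was analysed, grouped by the treatment label. The authors deposited FPKM per gene. Reads were processed with HISAT2 2.0.5 and TAIR10, per the submitters' processing notes; of the counting, neither the program nor the use of strand is given in those notes. The authors' deposited table of 2104 genes gives log2 fold changes, adjusted p-values and a signal per library (counts divided by a size factor). FPKM times gene length gave whole read counts for 100% of values (within 0.01). A count of 0 allows up to 3 reads, 0.129 to 0.154 FPKM at 1 kb, for counting error only. limma 3.58.1 (R 4.3.3; lmFit, eBayes with trend and robust, 2-sided) was run on log2(FPKM + 1), which understates changes of low genes, for genes with a mean of at least 1 FPKM, with Benjamini-Hochberg adjustment; it was tested on simulated data. Ratios used exact permutation tests. Alternatives were edgeR 4.0.16 and DESeq2 1.42.0 on recovered reads, another pseudocount, other filters, TMM scaling, a replicate block and each library left out. The genes and lists were chosen with earlier results of these data known. Named from the lists were all called genes, 8 preset ones and the 5 most like FSD1. ATX1, YSL2, CITF1, RAN1, COPT3, COX5B-1, LAC2, LAC4, LAC12, LAC17, PAA2, UCC2 and the microRNA genes were chosen after their values were seen. Sequences are from TAIR10.1, where 99.951% of 32548 matched genes have the same span.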

Additional observations from a re-analysis of the deposited data

How the results depend on the processing

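With DESeq2, 2 copper genes were called in place of 1, and the same number was reached when treated library 1 was left out; leaving out single libraries gave 1 to 2. CCH was called in every alternative. For all genes, leaving out single libraries gave 1340 (without control library 1) to 3442 calls (without treated library 2), and 1555 without control library 2. Copper proteins ranged from 2 (without control library 1) to 5, the other copper handling genes from 3 to 5, root markers from 5 (without control library 3) to 9, and shoot markers from 0 (without control library 1 or 2) to 1. With a minimum mean of 5 FPKM, 1 root marker was called, since fewer genes were tested. Over 32 single genes and 402 alternatives, 390 kept their side of the threshold, 8 lost and 4 gained the call, and 0 reversed a called change; the sign of uncalled changes near 0, such as that of CCS, could turn. A replicate block called 3256 genes, among them 1 copper gene, 6 of the copper handling genes in place of 4 and 5 copper proteins. Deviations of same-numbered libraries correlated at 0.0861, 0.383 and 0.101, and treated library 1 correlated best with control library 3 (0.302), so the numbers were not taken as pairs. In the block the differences of the FSD1 and CCS ratios were 0.82 and 0.44 (exact sign permutation p = 0.25 each). That is the smallest p this test can give with 3 pairs, so it could not reach 0.05.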

Other observations

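Metallothioneins, small proteins that bind copper and zinc, were added as a list after the values were seen. Of 5 genes, 4 were tested and 0 were called by limma, against 14.5% of all tested genes, so the count does not set them apart. Their median log2 change was 0.01. MT1C had 64.6, 75.0 and 45.8 FPKM in treated and 215, 93.6 and 118 FPKM in control libraries, so all treated libraries lay under all controls. Its log2 change was -1.13 (unadjusted limma p = 0.00896, adjusted p = 0.0571). edgeR and DESeq2 on recovered reads called it lower (log2 changes -1.22 and -1.21, adjusted p = 0.0234 and 0.000202), and the authors' deposited table lists it at -1.20. MT2A, MT2B and MT3 overlapped between the groups (limma adjusted p = 0.649, 0.421 and 0.272), and MT1A was listed at 0 in all 6 libraries. The MT1A span lies wholly (100%) within another gene on the same strand, so that 0 may come from how reads were assigned, which was not tested.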
